A study of Rattus norvegicus with 320 samples.

Results

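miR-124 and miR-9 are the pair of microRNAs (miRNAs) most closely tied to neurons. They were followed here through 11 organs of Fischer 344 rats, an inbred strain. Small RNA of 16 to 35 nt was sequenced from brain, adrenal gland, heart, kidney, liver, lung, skeletal muscle, spleen, thymus, and testis or uterus of female and male rats aged 2, 6, 21 or 104 weeks (juvenile, adolescent, adult and aged). At each age 4 rats of each sex gave 10 organs apiece, which made 80 groups of organ, sex and age and 320 libraries of whole ground organ. Libraries of different organs therefore share animals. The labels do not tie a library to a rat, so every test between organs treated them as independent. All rats came from 1 colony of this strain, and groups differ only in organ, sex and age, with no allele or agent named. Every row of the count table named rno-miR-124, rno-miR-9a or rno-miR-9b was taken, whatever its arm. That gave 5 of the 616 rows, namely rno-miR-124-3p, rno-miR-124-5p, rno-miR-9a-5p, rno-miR-9a-3p and rno-miR-9b-5p. The 2 libraries the study removed for clustering away from their organ, brain male week 6 replicate 3 and spleen female week 104 replicate 4, were left out, so 31 libraries from brain and 287 from the other organs were used. Levels are counts per 1000000 miRNA counts of a library (CPM). Titles and methods name 4 rats per group, and p-values measure the spread between these rats.

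A miRNA is cut from a hairpin precursor whose arms, called 5p and 3p, can each be loaded into Argonaute, where bases 2 to 8 (the seed) pair with target messenger RNAs. miR-124 appears as neurons differentiate, stays abundant in mature neurons and represses genes of non-neuronal cells, including a component of the REST repressor pathway and the splicing regulator Ptbp1. miR-9 is present earlier, in neural progenitors as well as in neurons and some glia, where it represses the progenitor nuclear receptor Tlx (Nr2e1), and both of its arms are known to be functional. Whole brain contains all of these cells at once, and in a bulk sample a smaller share of a cell type cannot be told apart from less of the RNA per cell.

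The mature sequences of the miR-9 rows, with the seed in capitals, show how the rows differ. They were taken from RefSeq (GRCr8), whose table matched 3 of the 5 rows.
rno-miR-9a-5p: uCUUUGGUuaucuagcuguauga
rno-miR-9a-3p: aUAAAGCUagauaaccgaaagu
rno-miR-9b-5p: uUCGGUUAucuagcuuuau
The 3 seeds differ, and no other of the 616 rows shared a seed with rno-miR-9a-5p, rno-miR-9a-3p or rno-miR-9b-5p. rno-miR-9b-5p is 19 nt long and equals, without a mismatch, the reverse complement of part of rno-miR-9a-3p. Its RefSeq genes (Mir3597-1, -2 and -3) lie on the opposite strand of the miR-9a hairpins. Set against rno-miR-9a-5p it has 2 substitutions, C3U and U16G, with the base of rno-miR-9b-5p first and positions counted from its 5′ end. It was the only row within 3 mismatches of rno-miR-9a-5p, and reads were aligned with fewer than 2 mismatches. A fragment of rno-miR-9a-5p misread at 1 of the 2 positions would be equally near both rows. Whether such reads entered the rno-miR-9b-5p counts was not tested.

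rno-miR-9a is encoded by 3 genes whose mature arms, in capitals here, are identical, so a count cannot be assigned to a gene and only the loop and flanks differ.
Mir9-1: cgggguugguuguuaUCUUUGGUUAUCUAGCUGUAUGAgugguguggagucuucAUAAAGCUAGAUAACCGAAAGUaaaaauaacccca
Mir9-2: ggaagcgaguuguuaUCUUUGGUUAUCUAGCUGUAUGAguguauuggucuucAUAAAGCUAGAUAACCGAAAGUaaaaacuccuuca
Mir9-3: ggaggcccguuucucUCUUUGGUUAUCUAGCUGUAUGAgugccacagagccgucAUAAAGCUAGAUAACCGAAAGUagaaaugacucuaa
In GRCr8 all 3 lie on the plus strand, Mir9-1 at chr2:175974971-175975059, Mir9-2 at chr2:15933292-15933378 and Mir9-3 at chr1:142849400-142849489. RefSeq places Mir9-1 within the long noncoding RNA gene LOC100911992, Mir9-2 within its host gene Mir9-2hg and Mir9-3 within the long noncoding Mir9-3hg. The arms are separated by 16, 14 and 16 nt. miR-124 likewise comes from 3 genes, Mir124-1, Mir124-2 and Mir124-3.

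Depth over all libraries used ranged from 315550 to 10571766 miRNA counts, with the shallowest in liver, and from 1164462 to 4958803 in brain. The shallowest brain library was female week 104 replicate 4. The paper reports that miRNA made up a far smaller share of its reads than in the average brain sample. It was kept, and held the highest week 104 CPM in brain of rno-miR-124-3p (14427), rno-miR-124-5p (76.4) and rno-miR-9a-5p (42940). Sequencing lane was uneven over ages in brain. All 7 week 6 brain libraries were run on lanes 7 and 8, 5 of them on lane 8, which held no brain library of another age, and 2 brain libraries of other ages were on lane 7. Contrasts with week 6 therefore leaned on few libraries once lane was fitted. Brain was checked against lists of cell type markers. An 11-member neuronal list summed to 31457 to 70057 CPM in brain and a 4-member oligodendrocyte list to 1632 to 8824 CPM, with no marker at 0. In the other organs the neuronal list reached at most 13518 CPM, in thymus.

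Brain held nearly all counts of the family. It contributed 99.2% of all rno-miR-124-3p counts, 98.9% of rno-miR-124-5p, 98.0% of rno-miR-9a-5p, 98.6% of rno-miR-9a-3p and 88.9% of rno-miR-9b-5p. In brain rno-miR-9a-5p was the most abundant member, at 46044 CPM ± 14403 (SD, n = 31), the fourth-ranked miRNA of the organ and 4.60% of its counts. rno-miR-124-3p averaged 10829 CPM ± 2655, or 1.08% of counts, and ranked 19. The 3p arm of miR-9a stood at 2227 CPM ± 822, the 5p arm of miR-124 at 67.9 CPM ± 18.1 and rno-miR-9b-5p at 3.02 CPM ± 1.75. These levels compare counts of small RNAs of like length, but ligation and amplification differ between sequences, so the order of members carries that limit.

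The organ comparison asked, at each age, how far brain stood above each of the other 10 organs. edgeR's quasi-likelihood test was used with Benjamini-Hochberg adjustment over 616 miRNAs, which is the source of every adjusted p below unless another test is named. Brain was higher by at least 4-fold in 40 of 40 comparisons for rno-miR-124-3p, rno-miR-124-5p, rno-miR-9a-5p and rno-miR-9a-3p. Of all miRNAs, 7.95% were higher by that rule at every age. The members had been chosen with such a pattern already known. The smallest lead of rno-miR-124-3p was a log2 difference of 6.65 ± 0.41 (SE), over skeletal muscle at week 21. That of rno-miR-9a-5p was 6.19 ± 0.36, over kidney at week 21, and that of rno-miR-9a-3p was 6.31 ± 0.58, over testis at week 6. These sizes depended on edgeR's TMM scaling of libraries. Scaled by library size alone, as CPM is, the smallest leads of these members were 7.81, 7.42 and 6.79 in the same order. rno-miR-124-5p held 3 counts or fewer in all 287 libraries outside brain, so only a bound can be given, and against a floor of 3 counts per library it was at least 16.7-fold higher in brain in every comparison. rno-miR-9b-5p was called higher in 38 of 40 comparisons, the exceptions being testis at weeks 6 and 21. In those 38 the other organ held 3 counts or fewer in every library, and brain itself held 2 to 20 counts. Against the floor of 3 counts the lowest bound was 0.73-fold, so no size of its lead can be given.

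**Figure D1:**
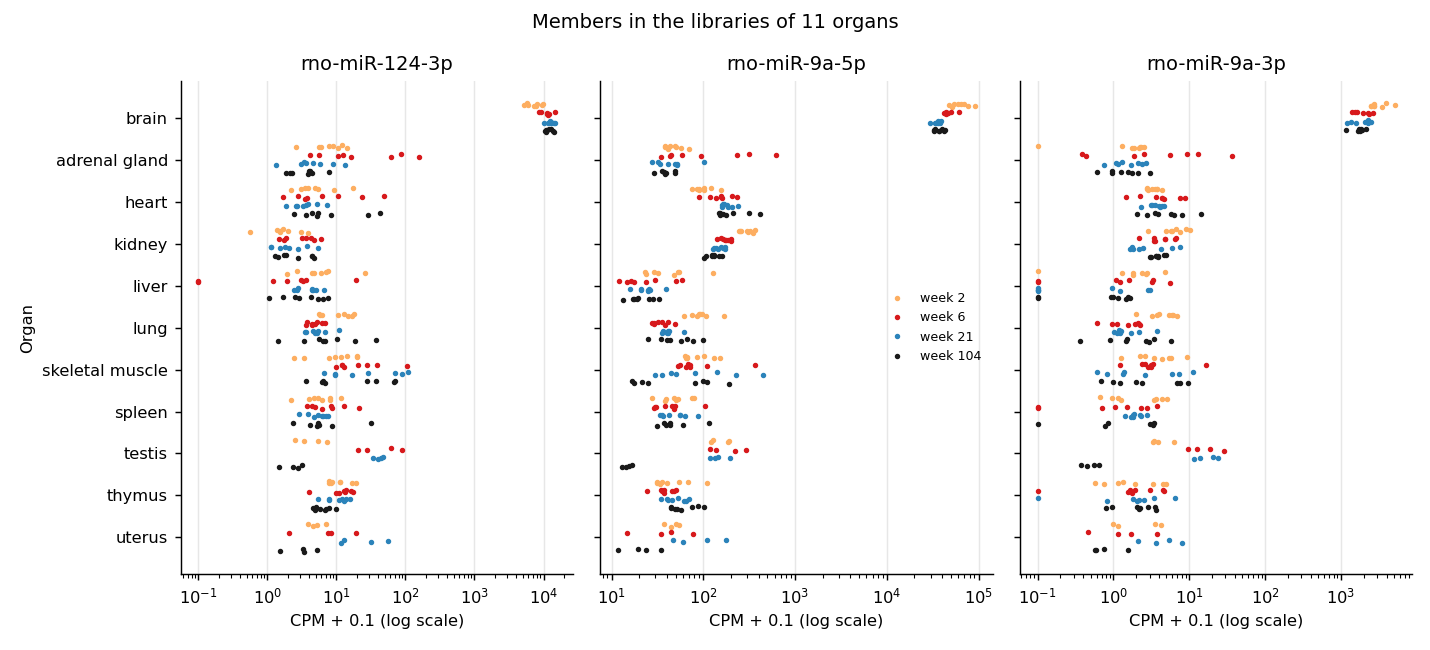
CPM of rno-miR-124-3p, rno-miR-9a-5p and rno-miR-9a-3p in each library used, by organ (rows) and age (colors), on a log axis after adding 0.1 CPM so that libraries at 0 can be drawn. Brain libraries lie between 5175 and 14913 CPM of rno-miR-124-3p, whereas the highest library outside brain reached 156 CPM.

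Within brain the members took opposite courses with age. rno-miR-124-3p was lowest in the juvenile brain. At week 2 its level ranged from 5175 through a median of 7587 to 9716 CPM. At week 6 the range was 8636 to 14913 CPM (median 11109), at week 21 it was 10240 to 14888 (median 12708) and at week 104 it was 10376 to 14427 (median 11709). Every week 21 and every week 104 library was above every week 2 library, while the week 2 and week 6 ranges overlapped. Means were 7404 ± 1705, 11190 ± 2049, 12741 ± 1474 and 12025 ± 1480 CPM (SD, n = 8, 7, 8 and 8).

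The rise of rno-miR-124-3p fell in the first weeks. From week 2 to week 6 the log2 change was 0.89 ± 0.12 (SE, adjusted p = 3.1e-07), in a contrast in which 23.5% of all miRNAs were called higher and 19.3% lower. From week 6 to week 21 it was 0.35 ± 0.12 (adjusted p = 0.038), where 8.6% were called higher and 9.9% lower. This second call was lost with library-size scaling, with lane as a covariate (adjusted p = 0.69) and without any 1 of 8 libraries. These were week 6 females 2, 3 and 4, week 6 males 2 and 4, week 21 female 4 and week 21 males 2 and 3, and the values then lay between 0.27 and 0.35. From week 21 to week 104 the value was -0.11 (adjusted p = 0.63), with 0.487% of miRNAs called higher and 2.44% lower. From week 2 to week 104 the log2 change was 1.12 ± 0.11 (adjusted p = 1.3e-09), against 28.7% of miRNAs called higher and 26% lower. It was the member that also passed a 2-fold rule over that span, as did 24.7% of miRNAs in either direction.

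rno-miR-9a-5p was highest in the juvenile brain. Its week 2 libraries ran from 47420 through a median of 62197 to 91633 CPM. At week 6 they ran from 41806 to 61558 CPM (median 44528), at week 21 from 29761 to 38522 (median 36058) and at week 104 from 32502 to 42940 (median 36739). Each week 2 library thus exceeded each library of weeks 21 and 104, and the week 6 and week 21 ranges did not overlap either. Means were 64419 ± 14628, 47512 ± 6805, 35341 ± 2864 and 37087 ± 4065 CPM, and the rank among brain miRNAs moved from 3 at week 2 to 6 at weeks 21 and 104.

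By edgeR with TMM scaling rno-miR-9a-5p fell over the whole span, with a log2 change of -0.37 ± 0.11 from week 2 to week 104 (adjusted p = 0.0047), a call lost in females alone (-0.12, adjusted p = 0.60). The step values were -0.13, -0.27 and 0.03, with adjusted p of 0.36, 0.10 and 0.89. With library-size scaling the steps from week 2 to 6 and from week 6 to 21 were both called (-0.42 each, adjusted p = 0.00021 and 0.00064), and with the replicate number as a block the latter was (-0.29, adjusted p = 0.048). rno-miR-9a-3p, cut from the same precursors, had a median of 2744 CPM at week 2 (2459 to 5102), 1928 at week 6 (1385 to 2636), 2154 at week 21 (1205 to 2531) and 1755 at week 104 (1171 to 2149). It fell by 0.44 on the log2 scale from week 2 to week 6 (adjusted p = 0.034) and by 0.46 from week 2 to week 104 (adjusted p = 0.015), and the week 2 and week 104 libraries did not overlap. The call at week 6 was lost with lane as a covariate (adjusted p = 0.56) and without week 2 female 2, week 2 male 4, week 6 female 1, week 6 female 3 or week 6 male 1 (values between -0.42 and -0.31). The call at week 104 was lost without week 2 male 4 (-0.33, adjusted p = 0.061).

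The minor arm of miR-124 did not follow the major arm. rno-miR-124-5p had a median of 85.9 CPM at week 2 (62.3 to 113), 73.9 at week 6 (59.8 to 79.6), 63.0 at week 21 (41.3 to 74.2) and 50.3 at week 104 (39.5 to 76.4). It fell by 0.28 on the log2 scale from week 2 to week 104 (adjusted p = 0.043), a call lost without any 1 of 8 libraries (females 2 and 4 and males 3 and 4 of week 2, females 2 and 3 and males 2 and 4 of week 104; values between -0.29 and -0.25). rno-miR-9b-5p stood at 4.02 ± 3.02 CPM at week 2 and 2.59 ± 0.99 at week 104, and none of its 4 age contrasts was called.

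**Figure D2:**
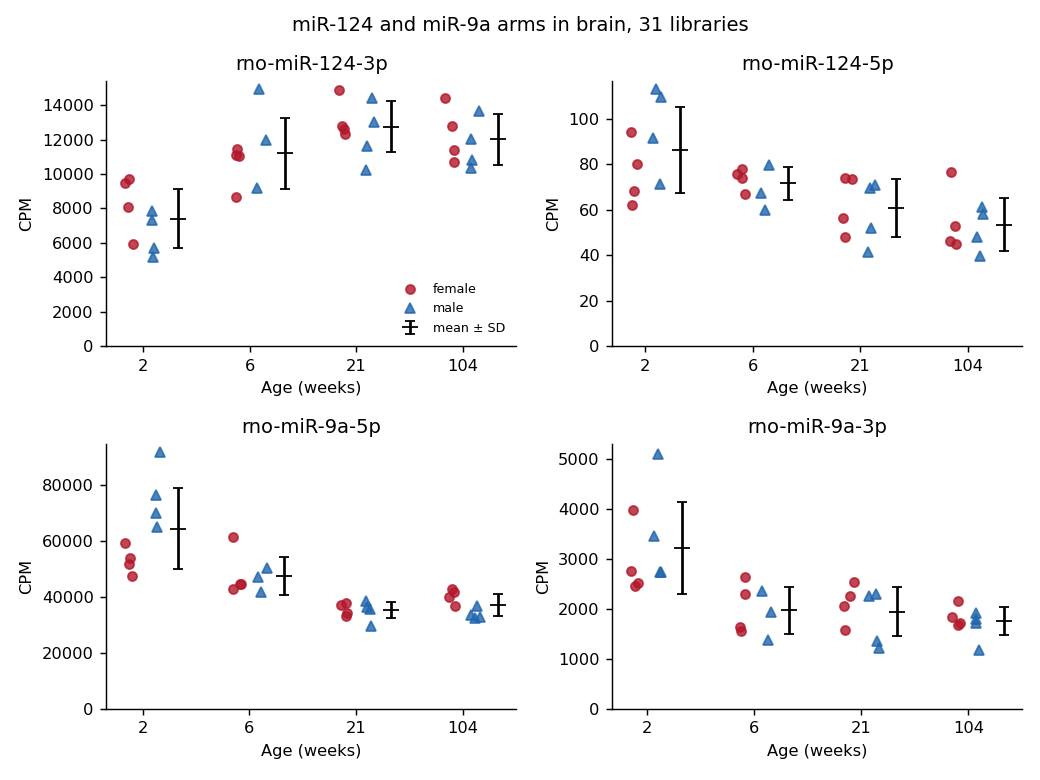
CPM of 4 members in the 31 brain libraries against age in weeks (circles, female; triangles, male; bars, mean ± SD of each age, n = 7 at week 6 and 8 otherwise). The 3p arm of miR-124 was lowest at week 2, where the other 3 were highest, and the week 2 and week 104 libraries do not overlap for rno-miR-124-3p, rno-miR-9a-5p and rno-miR-9a-3p.

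The size of these changes depended on how libraries were scaled. edgeR's TMM factors set the median miRNA near no change (median log2 change 0.07 from week 2 to week 104). Scaling by library size alone, which is what CPM does, shifted the members by -0.41 over that span, by -0.27 from week 2 to week 6 and by -0.16 from week 6 to week 21. With it, rno-miR-124-3p rose by 0.71, rno-miR-9a-5p fell by 0.78, rno-miR-9a-3p fell by 0.88 and rno-miR-124-5p fell by 0.69 from week 2 to week 104, all 4 still called. The directions held under both scalings, and of all miRNAs 91 were then called higher and 248 lower, against 177 and 160 with TMM.

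A ratio of 2 members within a library is free of that scaling. The ratio of rno-miR-124-3p to rno-miR-9a-5p in brain ranged from 0.0565 to 0.205 at week 2 (median 0.118), from 0.140 to 0.357 at week 6 (median 0.249), from 0.286 to 0.485 at week 21 (median 0.346) and from 0.286 to 0.418 at week 104 (median 0.321). The highest week 2 library lay below the lowest library of week 21 and of week 104. The log2 ratio rose by 1.03 ± 0.27 (SE) from week 2 to week 6 in an exact two-sided permutation test over samples (p = 0.0022, adjusted p = 0.0075 over 12 ratio tests). It rose by a further 0.62 ± 0.19 to week 21 (exact p = 0.0031, adjusted p = 0.0075) and differed by -0.15 ± 0.11 between weeks 21 and 104 (exact p = 0.19, adjusted p = 0.28). Over the whole span the ratio rose 2.82-fold (exact p = 0.00016, the smallest that 8 against 8 samples can give; adjusted p = 0.00093). Lane was not accounted for in the ratio tests. All 7 week 6 brain libraries were on lanes 7 and 8, so lane and age can hardly be told apart in the steps to and from week 6.

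The arms of a precursor were compared in the same way. rno-miR-124-3p outnumbered rno-miR-124-5p 87.0-fold at week 2 (median, 47.2 to 152), 153-fold at week 6 (117 to 187), 213-fold at week 21 (167 to 264) and 239-fold at week 104 (186 to 285). The log2 arm ratio rose by 0.86 ± 0.21 to week 6 and by 0.46 ± 0.13 to week 21 (exact permutation p = 0.0025 and 0.0044, adjusted p = 0.0075 and 0.0087). Lane was not accounted for in these steps either. From week 21 to week 104 the difference was 0.10 ± 0.12 (exact p = 0.44), and from week 2 to week 104 the ratio rose 2.66-fold, without overlap. For miR-9a no arm ratio was called. rno-miR-9a-5p outnumbered its 3p arm 20.8-fold at week 2 (13.0 to 33.6) and 20.6-fold at week 104 (18.8 to 27.8), a log2 difference of 0.08 ± 0.16 (exact p = 0.63).

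**Figure D3:**
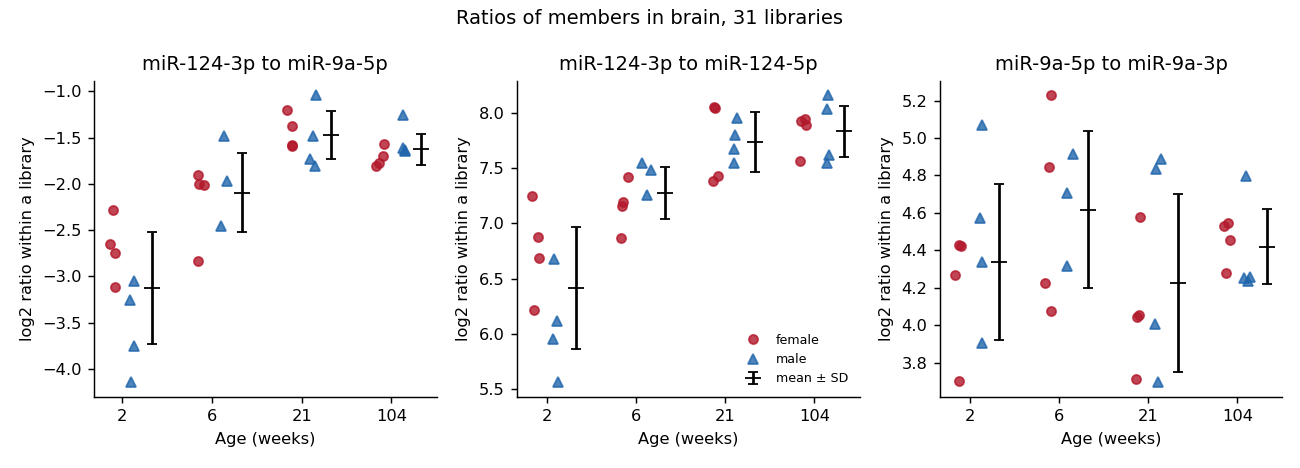
Log2 ratios of pairs of members within each of the 31 brain libraries against age in weeks (circles, female; triangles, male; bars, mean ± SD). The ratios of rno-miR-124-3p to rno-miR-9a-5p and to its own 5p arm climb until week 21, and the miR-9a arm ratio overlaps between all ages.

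Sex was compared over all ages and as a difference of the change from week 2 to week 104. Averaged over ages, no member differed between the sexes in brain. The male minus female log2 difference was -0.07 for rno-miR-124-3p (95% interval -0.23 to 0.09) and 0.05 for rno-miR-9a-5p (-0.10 to 0.20), where 0.325% of miRNAs were called. In the change with age, the male minus female difference was 0.55 ± 0.22 (SE) for rno-miR-124-3p (unadjusted p = 0.021, adjusted p = 0.25) and -0.49 ± 0.21 for rno-miR-9a-5p (unadjusted p = 0.029, adjusted p = 0.28). Here 0.974% of miRNAs were called, and with library-size scaling rno-miR-9a-5p was among those called, at -0.76 (adjusted p = 0.029). Without brain female week 104 replicate 4, 1 of 616 miRNAs was called with TMM scaling, in place of 6.

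The sexes parted at week 2, where females were on lanes 2, 4 and 6 and males on lanes 1, 3 and 7. No lane held week 2 brain libraries of both sexes, so sex and lane cannot be told apart at that age. Juvenile female brains held 47420, 51655, 59370 and 54036 CPM of rno-miR-9a-5p and juvenile males 65024, 69893, 91633 and 76320, with no overlap. For rno-miR-124-3p the females held 9716, 5958, 9484 and 8053 CPM and the males 7855, 7319, 5175 and 5673, with overlap. At week 104 the females held 41669, 39831, 36695 and 42940 CPM of rno-miR-9a-5p and the males 36783, 33594, 32678 and 32502. The ratio of rno-miR-124-3p to rno-miR-9a-5p rose on the log2 scale by 0.98 in females and by 2.01 in males. The difference of 1.03 between the sexes was tested by exact permutation of sex labels within each age (p = 0.0053, adjusted p = 0.016 over the 3 ratios), a test chosen after the values had been seen. Lane was not part of this test.

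Other miRNAs known for neurons did not move as a block with the members. Of the 11 in the neuronal list, 7 were called higher and 2 lower in brain from week 2 to week 104. The median log2 change was 0.76 against 0.07 over all miRNAs, of which 28.7% were called higher and 26% lower. From week 2 to week 6, 7 were called higher and 1 lower (median 0.76, all miRNAs 0.00), beside 23.5% and 19.3% of all miRNAs. rno-miR-384-5p rose by 1.35 ± 0.16 (adjusted p = 2.8e-08; 916 ± 349 to 1676 ± 175 CPM) and rno-miR-218a-5p, the motor neuron miRNA, by 1.03 ± 0.09 (adjusted p = 1.3e-10). rno-miR-488-3p fell by 0.58 (adjusted p = 0.00028; 1423 ± 393 to 698 ± 54.2 CPM) and rno-miR-138-5p, a regulator of dendritic spines, fell by 0.51 (adjusted p = 0.046). All 4 of the oligodendrocyte list were called higher from week 2 to week 104, beside 28.7% of all miRNAs, with a median of 1.09. They were led by rno-miR-338-3p at 3.26 ± 0.13 (adjusted p = 5.0e-18; 750 ± 301 to 5033 ± 852 CPM) and rno-miR-338-5p at 1.15 ± 0.12 (adjusted p = 4.1e-09). Mean CPM, which follows library size, moved in the same direction for each called member of both lists. Summed over the list, oligodendrocyte markers went from 2482 ± 756 CPM at week 2 to 7069 ± 869 at week 104, beside 52696 ± 10279 to 38514 ± 5829 for the neuronal list. Most of the neuronal sum in brain was rno-miR-128-3p, at 38129 ± 9361 and 25046 ± 4772 CPM at those ages. Its TMM-scaled change was not called (-0.18, adjusted p = 0.38), so the sum does not speak for the list as a whole.

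Markers of other cells also moved in brain. A 7-member epithelial list, mostly the miR-200 family, summed to 4099 ± 2078, 7822 ± 5255, 17961 ± 7050 and 6463 ± 4578 CPM at weeks 2, 6, 21 and 104, so the week 21 libraries (10904 to 28972) stood apart from most others. Blood and immune markers were at 13169, 13826, 9630 and 11979 CPM on average at those ages, endothelial markers at 12804 ± 2765 and 10432 ± 2367 CPM at weeks 2 and 104, and smooth muscle markers at 24553 ± 3964 and 36747 ± 3607 CPM. No marker of these lists was at 0 in brain. Their part in the members' age changes was not tested.

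The miRNAs most like the members were sought by Pearson correlation of mean log2(CPM + 1), given as a description, since all points come from the same libraries. Over the 44 combinations of organ and age, the nearest of 456 to rno-miR-124-3p were its own 5p arm (r = 0.97), rno-miR-132-5p, rno-miR-764-3p, rno-miR-9a-3p and rno-miR-219a-2-3p (all r = 0.96). The nearest to rno-miR-9a-5p were its own 3p arm (r = 0.98), rno-miR-219a-2-3p (r = 0.96), rno-miR-132-3p (r = 0.95), rno-miR-764-3p and rno-miR-124-5p (both r = 0.94). Those of rno-miR-9a-3p were rno-miR-9a-5p, rno-miR-219a-2-3p (both r = 0.98), rno-miR-124-5p (r = 0.98), rno-miR-132-3p and rno-miR-132-5p (both r = 0.97). Those of rno-miR-124-5p were rno-miR-764-3p, rno-miR-153-5p (both r = 0.99), rno-miR-448-3p, rno-miR-219a-2-3p and rno-miR-9a-3p (all r = 0.98).

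Within brain, over the 8 groups of sex and age, the neighbors were different miRNAs. Nearest to rno-miR-124-3p among 454 were rno-miR-376b-5p (r = 0.98), rno-miR-29a-5p (r = 0.98), rno-miR-194-5p, rno-miR-29b-3p and rno-miR-29c-3p (all r = 0.97). The miR-29 family is known to rise as the brain matures. Nearest to rno-miR-9a-5p were rno-miR-504, rno-miR-127-5p (both r = 0.99), rno-miR-329-5p, rno-miR-181a-1-3p (both r = 0.98) and rno-miR-329-3p (r = 0.97). The nearest to rno-miR-9a-3p were rno-miR-485-3p, rno-miR-323-3p, rno_miR_chr7_40035, a candidate named by the study, rno-miR-188-5p and rno-miR-3085 (all r = 0.98). Nearest to rno-miR-124-5p were rno-miR-455-5p (r = 0.98), rno-miR-448-3p, rno-miR-504, rno-miR-293-5p and rno-miR-539-3p (all r = 0.97). Across these 8 groups rno-miR-124-3p and rno-miR-9a-5p ran against each other (r = -0.92), and so did the arms of miR-124 (r = -0.85), while the arms of miR-9a ran together (r = 0.88).

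Outside brain the members were traces, but not the same trace in every organ. rno-miR-9a-5p was over 3 counts in all 287 libraries, rno-miR-124-3p in 269 and rno-miR-9a-3p in 207. Averaged over ages, rno-miR-9a-5p stood at 188 CPM in kidney (101 to 364), 165 in heart (75.2 to 418), 128 in testis (12.7 to 295), 100.1 in skeletal muscle (16.7 to 450) and 79.2 in adrenal gland (27.6 to 623), and between 30.7 CPM in liver and 57.3 in lung elsewhere. rno-miR-124-3p had another order, with 27.9 CPM in skeletal muscle (2.29 to 109), 24.4 in testis (1.37 to 88.9), 15.4 in adrenal gland (1.23 to 156) and 11.4 in uterus (1.40 to 56.5), and its lowest mean, 2.55 CPM (0.451 to 5.93), in kidney. rno-miR-9a-3p was highest in testis at 9.80 CPM, with 4.48 in kidney, 4.28 in heart and 4.04 in skeletal muscle.

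Not all organs could be told apart. Of 45 pairs of organs outside brain, rno-miR-9a-5p was called different in 26, 28, 31 and 32 at weeks 2, 6, 21 and 104, rno-miR-124-3p in 21, 23, 29 and 15, and rno-miR-9a-3p in 16, 18, 29 and 23. Over all miRNAs 62.9%, 61.2%, 58% and 52.1% of such comparisons were called at those ages. For rno-miR-9a-5p kidney led at week 2, above testis (298 against 157 CPM, adjusted p = 1.1e-06). At week 6 testis, adrenal gland, kidney and heart were at 194, 180, 175 and 156 CPM, and none of the first 3 was called above the next. At week 21 heart and kidney were at 182 and 150 CPM (adjusted p = 0.50), and at week 104 at 217 and 128 CPM (adjusted p = 0.59). The tests used TMM scaling, which CPM does not, and the 2 orders could disagree. By the tests the log2 difference was -0.66 for testis minus adrenal gland at week 6 and -0.25 for heart minus kidney at week 21. Some reversals were called. Spleen minus thymus was -0.94 at week 2 (adjusted p = 0.0018) and testis minus skeletal muscle -0.97 at week 21 (adjusted p = 0.020), against their CPM order.

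The proportion of the members separated these organs further. In brain there were 3.91 counts of rno-miR-9a-5p for each count of rno-miR-124-3p, pooled over libraries. The pooled value was 3.77 in skeletal muscle, 4.38 in uterus, 5.18 in thymus, 5.35 in adrenal gland, 6.16 in liver, 6.82 in spleen, 7.06 in lung and 7.57 in testis, but 17.3 in heart and 76.1 in kidney. Libraries with many counts weigh most in a pooled value. The median over single libraries with over 3 counts of both was 3.49 in brain, 3.83 in skeletal muscle, 4.57 in thymus, 6.00 in uterus, 7.86 in adrenal gland, 31.4 in heart and 79.4 in kidney, and in adrenal gland it was 9.50 at week 21 and 11.3 at week 104. Among such kidney libraries it ran from 23.7 to 281, with no overlap with brain, whose highest library was at 17.7. Heart ran from 4.71 to 137 and overlapped brain. The miR-9a arms likewise stood at 42.3 and 37.0 counts of 5p per count of 3p in kidney and heart, against 20.4 in brain and 18.0 in testis.

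**Figure D4:**
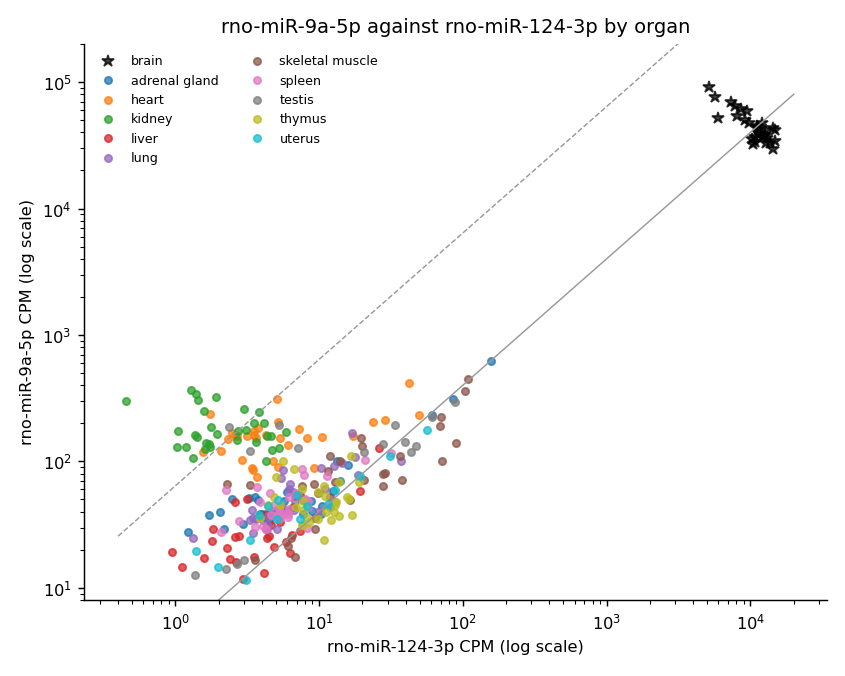
rno-miR-9a-5p CPM against rno-miR-124-3p CPM on log axes for each library with a count of rno-miR-124-3p, colored by organ (stars, brain). The solid line marks 4 and the dashed line 64 counts of rno-miR-9a-5p per count of rno-miR-124-3p; kidney libraries lie around the dashed line, and the highest libraries of adrenal gland and skeletal muscle near the solid one.

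The libraries outside brain with the most rno-miR-124-3p were few. The 10 highest came from skeletal muscle (6), adrenal gland (3) and testis (1), led by adrenal gland female week 6 replicate 3 with 156 CPM of rno-miR-124-3p, 623 of rno-miR-9a-5p and 37.1 of rno-miR-9a-3p. Their counts of rno-miR-9a-5p per count of rno-miR-124-3p ran from 1.41 to 4.11. The leading adrenal library also had the highest neuronal list sum of its organ, 3214 CPM, where week 6 adrenal libraries had a median of 2102. Adrenal gland female week 6 replicate 1, with 85.7 CPM of rno-miR-124-3p, had the lowest sum of that age, 1381 CPM. Skeletal muscle male week 21 replicate 3 had the highest neuronal sum of its organ and age, 772 CPM beside a median of 619, and an oligodendrocyte sum of 175 beside 183. In skeletal muscle female week 6 replicate 4 these sums were 1012 and 372 CPM, beside medians of 838 and 303 at that age. Skeletal muscle male week 21 replicate 2 and female week 21 replicate 1 had neuronal sums of 576 and 571 CPM. Both were below the week 21 median of 619, and their oligodendrocyte sums of 153 and 84.7 CPM were below that of 183. Among the rest of the 10, neuronal sums were 2110 CPM in adrenal gland female week 6 replicate 2 and 833 in testis male week 6 replicate 4. Skeletal muscle female week 104 replicates 1 and 2 had 725 and 367 CPM. Every lane carried brain libraries, and the lane medians of rno-miR-124-3p outside brain ran from 3.80 to 7.56 CPM. The part of other tissue or other libraries in these traces was not tested.

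Age moved rno-miR-9a-5p in opposite directions in heart and kidney. Heart libraries ran from 75.2 through a median of 96.0 to 157 CPM at week 2, from 88.6 to 233 at week 6 (median 156), from 159 to 238 at week 21 (median 174) and from 150 to 418 at week 104 (median 169). Only the highest week 2 library reached into the week 104 range. From week 2 to week 104 rno-miR-9a-5p rose in heart by 1.62 ± 0.17 on the log2 scale (adjusted p = 5.3e-10), and rno-miR-9a-3p by 1.37 ± 0.29 (adjusted p = 0.00015), where 54.7% of miRNAs were called. With library-size scaling the values were 1.06 and 0.81, both still called.

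In kidney rno-miR-9a-5p ran from 244 to 364 CPM at week 2 (median 302), from 141 to 203 at week 6 (median 174), from 127 to 173 at week 21 (median 149) and from 101 to 160 at week 104 (median 127). All week 2 libraries lay above all later ones. It fell by 0.99 on the log2 scale from week 2 to week 104 (adjusted p = 1.2e-07), and rno-miR-9a-3p fell by 0.54 (adjusted p = 0.036), where 43.7% of miRNAs were called. The 3p call was lost with DESeq2 (adjusted p = 0.073), with a mean count of at least 10 (0.053) and without replicate 1, 3 or 4 (0.053 to 0.24). The miR-9a-5p change in heart exceeded that in kidney by 2.54 ± 0.22 (adjusted p = 2.0e-16; 23.9% of miRNAs called) and that in brain by 1.95 ± 0.22 (adjusted p = 5.2e-12; 33.3% called). Kidney and brain differed by -0.59 ± 0.21 (adjusted p = 0.026; 32.6% called), a call lost with library-size scaling (adjusted p = 0.054). These differences were tested after the changes had been seen.

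For rno-miR-124-3p the heart and kidney changes differed by 0.90 ± 0.65, which was not called (adjusted p = 0.38). In kidney it was at 1.86 ± 1.06 CPM at week 2 and 2.73 ± 1.48 at week 104. In heart its median was 4.23 CPM at week 2 and 5.25 at week 104, while the mean went from 6.06 to 12.5 CPM through 2 high libraries, female replicate 2 (28.9 CPM) and male replicate 4 (42.0 CPM). Its log2 change in heart of 1.66 ± 0.52 was called (adjusted p = 0.0066). The call was lost with library-size scaling (1.09, adjusted p = 0.0845) and without the libraries numbered replicate 4 (0.56, adjusted p = 0.42) or replicate 2 (1.09, adjusted p = 0.11).

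**Figure D5:**
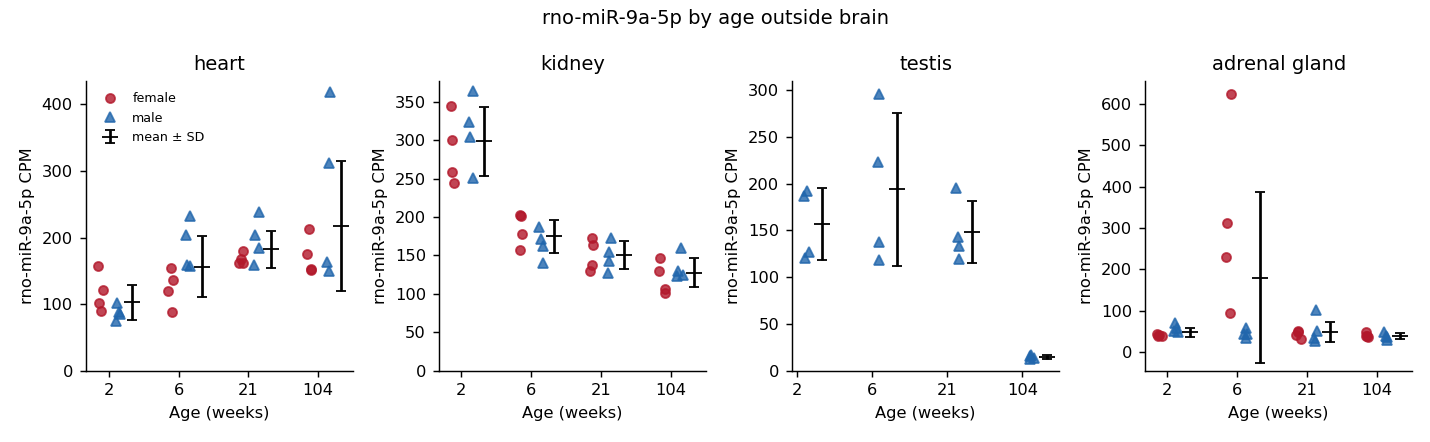
rno-miR-9a-5p CPM against age in weeks in heart, kidney, testis and adrenal gland (circles, female; triangles, male; bars, mean ± SD; the lower bar at week 6 in adrenal gland extends below 0). The level climbed in heart, declined in kidney, was at 14.7 CPM ± 1.69 in the aged testis and was high at week 6 in adrenal glands of females.

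Testis gave the largest steps outside brain. rno-miR-124-3p ran from 2.38 to 7.13 CPM at week 2, from 20.4 to 88.9 at week 6, from 34.0 to 47.5 at week 21 and from 1.37 to 3.02 at week 104 (n = 4 each), so that the middle ages did not overlap the youngest or oldest. In counts per library these were 8 to 18, 15 to 93, 48 to 52 and 10 to 20. rno-miR-124-3p rose by 3.51 ± 0.44 on the log2 scale to week 6 (adjusted p = 8.9e-06) and fell by 2.84 from week 21 to week 104 (adjusted p = 2.0e-05). rno-miR-9a-3p followed, at 4.14 ± 1.38, 17.4 ± 8.60, 17.2 ± 5.75 and 0.405 ± 0.116 CPM, with log2 changes of 2.08 ± 0.31 and -4.00 ± 0.39 over those steps (adjusted p = 5.3e-05 and 1.4e-07). At week 104 it held only 2 to 4 counts per library, so the size of that fall is uncertain. Of all miRNAs 45.3% were called from week 2 to week 6 and 50.6% from week 21 to week 104.

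rno-miR-9a-5p kept a different course in testis. It ran from 121 to 192, from 118 to 295 and from 120 to 195 CPM at weeks 2, 6 and 21 and was at 14.7 ± 1.69 CPM at week 104. In counts per library these were 302 to 653, 87 to 309, 142 to 276 and 63 to 113. Testis libraries held 734282 to 7383298 miRNA counts, with the fewest at weeks 6 and 21, so counts and CPM moved differently. The first step was not called (0.35, adjusted p = 0.40), and it fell by 2.03 from week 21 to week 104 (adjusted p = 3.4e-05). Scaling mattered most in this organ, where library size alone gave -3.33 for that fall and -4.12 and -5.26 for rno-miR-124-3p and rno-miR-9a-3p. Pooled over libraries, the miR-9a arm ratio in testis was 38.1 at week 2, 11.0 at week 6, 8.94 at week 21 and 36.3 at week 104. rno-miR-9b-5p had 4, 2, 2 and 1 counts in the week 6 libraries, 3, 1, 6 and 5 at week 21, and 0 in all 8 testis libraries of weeks 2 and 104, and both steps were called (adjusted p = 0.0016 and 0.00041). At counts this low the fold has no useful size, and the first call was lost with lane as a covariate.

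The testis samples themselves changed over these ages. The paper reports that piRNA, in place of miRNA, dominated the libraries of adolescent and adult testis. A 3-member germ cell list (rno-miR-34c-5p, rno-miR-449a-5p and rno-miR-741-3p) summed to 1311 to 2046 CPM at week 2, 146548 to 175778 at week 6, 145095 to 166756 at week 21 and 66.9 to 2353 at week 104, so its defining markers were nearly gone from all 4 aged testes. The neuronal list in testis was at 849 ± 287, 1137 ± 362, 1299 ± 385 and 556 ± 282 CPM, and blood and immune markers at 5066 ± 622, 18168 ± 4278, 17878 ± 4756 and 2374 ± 875 CPM. What these shifts contribute to the miR-124 and miR-9 values was not tested.

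In adrenal gland the members peaked at week 6, in females. The 4 female libraries held 313, 231, 623 and 94.0 CPM of rno-miR-9a-5p and the 4 males 57.9, 43.5, 34.1 and 44.5, without overlap. For rno-miR-124-3p the females held 85.7, 61.4, 156 and 16.0 CPM and the males 4.05 to 12.4, again without overlap. Over both sexes rno-miR-9a-5p rose by 1.44 ± 0.27 on the log2 scale from week 2 (adjusted p = 8.6e-05), rno-miR-124-3p by 1.76 ± 0.38 (adjusted p = 0.00040) and rno-miR-9a-3p by 1.56 ± 0.40 (adjusted p = 0.0028), where 32.3% of miRNAs were called. In the same average all 3 fell again by week 21, by 0.88, 1.90 and 1.14 (adjusted p = 0.021, 0.00041 and 0.034, with 19.6% of miRNAs called). Male means at week 21 were 53.7 CPM for rno-miR-9a-5p, 5.63 for rno-miR-124-3p and 1.64 for rno-miR-9a-3p. The rno-miR-9a-3p rise was not called without replicate 1 (adjusted p = 0.067). The difference between the sexes at week 6 was not tested.

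In skeletal muscle the traces differed between the sexes at week 104. The females held 27.6 to 71.2 CPM of rno-miR-124-3p and the males 3.58 to 6.83, and for rno-miR-9a-5p 80.0 to 190 against 16.7 to 24.9 CPM, in both cases without overlap. At week 2 the sexes overlapped. The male minus female difference of the change with age was -3.80 ± 1.04 for rno-miR-124-3p (adjusted p = 0.031) and -2.96 ± 0.87 for rno-miR-9a-5p (adjusted p = 0.047), where 4.38% of miRNAs were called. The second call was lost with the replicate number as a block (adjusted p = 0.062). It was also lost without any 1 of the 4 replicate numbers (adjusted p from 0.055 to 0.12), and the first without replicate 1, 2 or 3 (0.067 to 0.11). Averaged over the sexes, the change of rno-miR-124-3p from week 2 to week 104 was 1.57 ± 0.52 (adjusted p = 0.0091, with 59.7% called). That call was lost with library-size scaling (0.64, adjusted p = 0.28). The average describes neither sex, as females went from 8.29 ± 4.83 to 51.1 ± 22.2 CPM and males from 13.6 ± 7.89 to 5.71 ± 1.46.

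Calls were also made in thymus, lung, uterus, liver and spleen. In thymus rno-miR-124-3p fell by 1.03 on the log2 scale from week 2 to week 104 (11.2 ± 4.34 to 6.38 ± 1.78 CPM, adjusted p = 0.00055; 58% of miRNAs called). There the change of rno-miR-9a-5p differed between the sexes by 1.95 ± 0.43 (adjusted p = 0.0099; 0.974% called), with females at 68.1 ± 30.5 and 55.4 ± 14.9 CPM and males at 32.8 ± 1.99 and 72.2 ± 26.1 CPM at weeks 2 and 104. That call was lost with lane as a covariate (adjusted p = 0.0839) and without replicate 1 or 3 (adjusted p = 0.071 and 0.14). In lung rno-miR-9a-5p fell by 1.26 from week 2 to week 6 (median 90.0 to 33.4 CPM without overlap, adjusted p = 4.1e-06), as did rno-miR-9a-3p by 1.39 and rno-miR-124-3p by 0.99 (adjusted p = 0.0022 and 0.014; 35.6% called). In uterus all 3 fell from week 21 to week 104, rno-miR-9a-5p by 1.65, rno-miR-124-3p by 2.54 and rno-miR-9a-3p by 2.06 (adjusted p = 0.0032, 0.0014 and 0.012), without overlap of the 4 libraries at each age, where 13.1% of miRNAs were called. In liver rno-miR-9a-5p fell by 0.87 from week 2 to week 104 (48.7 ± 34.3 to 21.5 ± 6.69 CPM with overlap, adjusted p = 0.013; 44.6% called). In spleen rno-miR-124-3p rose by 0.97 from week 2 to week 6 (6.16 ± 2.90 to 8.65 ± 5.75 CPM with overlap). The call (adjusted p = 0.037, with 33.3% of miRNAs called) was lost with library-size scaling (0.58, adjusted p = 0.24). The paper reports low RNA integrity in the juvenile spleen samples, unlike most others. What RNA integrity contributes to the spleen rise, or to comparisons of juvenile spleen with other organs, was not tested.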

How the data were processed

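The table of raw miRNA counts deposited by the authors was used. Per the study's methods, reads from a TruSeq small RNA kit (50 bp single-end, no spike-ins) were trimmed with fastp 0.23.2, kept at 16 to 35 nt and aligned to miRBase with Bowtie 1.3.1 allowing fewer than 2 mismatches; miRNAs with under 1 count per library on average had been removed, and 12 candidate miRNAs added. Counts are relative to a library's miRNA total, so a change in abundant miRNAs moves all CPM, and reads without molecular identifiers are not independent molecules.

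Groups came from sample titles. CPM were computed from column totals. edgeR 4.0.16 (R 4.3.3) quasi-likelihood fits with TMM factors were made per organ (sex by age groups) and per age (organs), over all 616 miRNAs, with a call at adjusted p under 0.05. Where every library of both groups held 3 counts or fewer no fold was given. Ratios used a pseudocount of 0.5 and SciPy 1.17.1 permutation tests. The fits were tested on simulated data. Alternatives were DESeq2 1.42.0, scaling by library size, dropping miRNAs averaging under 10 counts, keeping the 2 removed libraries, lane as a covariate, the replicate number as a block, and leaving out libraries; the differences between organs in the age change and between sexes in the ratio change were added after the data had been seen. All named members are reported, with likeness by the 5 highest correlations and at most 4 per list, besides rno-miR-128-3p, given for its weight in the neuronal sum. Members and lists were chosen with earlier results of these data known. No 2 libraries of a group agreed within counting noise (474 pairs, lowest chi-square per degree of freedom 12.7).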

Additional observations from a re-analysis of the deposited data

Results flagged for a closer look

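In 23 of 132 sets of 1 member, 1 organ and 1 age, the highest library stood apart from the others by Dixon's test at the 95% level, which chance alone does in about 1 of 20 sets of independent, normally spread values. For rno-miR-124-3p these were 7.70 CPM in adrenal gland at week 104, 49.4 in heart at week 6, 26.0 and 19.3 in liver at weeks 2 and 6, 10.9 in lung at week 21, 104 in skeletal muscle at week 6 and 31.9 in spleen at week 104. For rno-miR-9a-5p they were 623 and 102 CPM in adrenal gland at weeks 6 and 21, 61558 in brain at week 6, 127 and 38.7 in liver at weeks 2 and 21, 169 and 60.7 in lung at weeks 2 and 21, 363 and 450 in skeletal muscle at weeks 6 and 21, 103 and 116 in spleen at weeks 6 and 104, and 110 in thymus at week 2. For rno-miR-9a-3p they were 37.1 CPM in adrenal gland at week 6, 3.65 in lung at week 21, 16.7 in skeletal muscle at week 6 and 6.19 in testis at week 2. No set stood apart by its lowest library. The members share libraries, so the sets are not independent and the rate of 1 in 20 need not hold here.

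The change from week 2 to week 104 differed between the sexes by -2.96 (rno-miR-9a-5p) and -3.80 (rno-miR-124-3p) in skeletal muscle and by 1.95 (rno-miR-9a-5p) in thymus, males minus females on the log2 scale, and for the ratio of rno-miR-124-3p to rno-miR-9a-5p in brain by 1.03. It differed between organs by 1.95 (rno-miR-9a-5p) and 1.82 (rno-miR-9a-3p) for heart minus brain, by 2.54 and 1.87 for heart minus kidney, and by -0.59 (rno-miR-9a-5p) for kidney minus brain.

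The libraries left out were also read. Spleen female week 104 replicate 4 held 981 CPM of rno-miR-124-3p, 3625 of rno-miR-9a-5p and 262 of rno-miR-9a-3p, where the 31 other spleen libraries reached at most 31.9, 116 and 5.07 CPM. Its 3.69 counts of rno-miR-9a-5p per count of rno-miR-124-3p were within the range of brain libraries. Brain male week 6 replicate 3 held 7005 CPM of rno-miR-124-3p and 22658 of rno-miR-9a-5p, both below the other 7 brain libraries of that age. Both left-out libraries were sequenced on lane 3.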

How the results depend on the processing

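Under each alternative run, rno-miR-124-3p, rno-miR-9a-5p and rno-miR-9a-3p stayed called at 4-fold above every other organ in brain. Of 1911 values recomputed under alternatives, 1795 kept their direction and call, or moved by less than the spread, 83 lost a call, 7 gained one, 25 moved and 1 reversed. In brain, the week 6 to 21 value of rno-miR-124-3p lost its call with library-size scaling (0.18), lane (0.44), females only (0.48) and males only (0.22), and ran from 0.23 to 0.49 with replicates left out. rno-miR-9a-5p gained a call from week 2 to 6 with library-size scaling (-0.42), a mean count of at least 10 (-0.27), males only (-0.51) and without week 6 female 3 (-0.28 to -0.085 over left-out replicates), from week 6 to 21 with library-size scaling (-0.42), and for sex by age with library-size scaling (-0.76). It lost its week 2 to 104 call in females (-0.12). rno-miR-9a-3p lost its week 2 to 6 call with lane (-0.31) and in females (-0.33), with -0.62 to -0.31 over left-out replicates, and its week 2 to 104 call in females (-0.37), with -0.66 to -0.31. Its number of other organs called from week 2 to 104, 4, was 2 to 3 without single replicate numbers. The cause was not tested.

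Within 1 sex, where 4 against 4 or 3 libraries could not pass the adjusted threshold, the log2 ratio of rno-miR-124-3p to rno-miR-124-5p changed by 0.40, 0.57 and 1.07 in females and 1.35, 0.31 and 1.76 in males (weeks 2 to 6, 6 to 21 and 2 to 104), and that of rno-miR-124-3p to rno-miR-9a-5p by 0.51, 0.75 and 0.98 and by 1.58, 0.46 and 2.01. Without single replicate numbers the first ran from 0.80 to 0.92 and from 0.37 to 0.59 over the first 2 steps and the second from 0.95 to 1.06 and from 0.51 to 0.83, with some adjusted p above 0.05. The smallest brain lead of rno-miR-9b-5p, -0.82, became 3.43 with testis and uterus left out, by construction. Outside brain and testis this member held 3 counts or fewer in every library, so the 3.43 has no useful size.

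The labels do not say whether a replicate number marks 1 rat across organs. Over the organs of each sex and age, deviations of same-numbered libraries had a mean r of -0.0135 to 0.0585 (highest in female week 104 and female week 6, 0.0585 and 0.0453, where other numbers had -0.0194 and -0.0146), with 18.7 to 37.4% of pairs over 0.1, so the number was not used as a pairing. Brain libraries of different sex or age are different rats (mean r = -0.0005 over 105 same-numbered pairs). With the replicate block, rno-miR-9a-5p was called from week 6 to 21 in brain (-0.29, adjusted p = 0.048), and 176 miRNAs were called higher and 159 lower from week 2 to 104. With lane fitted, calls over all miRNAs from week 6 to 21 went from 53 higher and 61 lower to 0 and 1, and from week 2 to 6 from 145 and 119 to 61 and 49. Library-size scaling gave 82 higher and 197 lower from week 2 to 6 and 30 and 118 from week 6 to 21. Low counts limit the members outside brain, where rno-miR-9a-3p was over 3 counts in 207 of 287 libraries.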
